A study of Homo sapiens with 12 samples.

Results

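The 10 genes described here belong to the integrated stress response and were measured in HK-2 cells, an immortalized epithelial line derived from the human kidney proximal tubule: the transcription factors ATF4, ATF3, ATF5, DDIT3, CEBPB and CEBPG, and the effectors TRIB3, SESN2, PPP1R15A and CHAC1. They were chosen by name, and all their probe sets were taken. The arrays held 19 probe sets for these 10 genes, of 19775 genes with a probe set of their own, and all 10 were bright enough to be tested (at 4 or more on 3 or more arrays), as were 10784 genes in all. Of the 19 probe sets, 17 reached that level. Each gene is given by its brightest probe set unless another is named, on the log2 scale of the deposited values, where 1 unit is a doubling, and levels are compared between arrays and never between genes.

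The study exposed HK-2 cells to a compound that the labels call Fk, or to its control vehicle, for 12 h or 48 h. What the name stands for and the dose given were not used here. The 4 groups were Fk at 12 h, control vehicle at 12 h, Fk at 48 h and control vehicle at 48 h, with 3 arrays each and 12 in all. All groups were the same unmodified cell line in the same medium, which held 5 mM glucose, insulin, transferrin, selenite, EGF and hydrocortisone. Wells received 700000 cells in 2 ml, were left for 24 h and were treated at about 90% confluency. Replicates are described as biological, but all come from this single line and no label says how the cultures were kept apart. The p-values therefore set differences against the spread between these samples and do not reach beyond this line. The comparisons ask what Fk did at each time and how each kind of culture differed between the times.

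The whole-array measures were close to each other, with 1 exception. Array medians ran from 2.85 to 2.94, but the normalization of the deposited values makes them alike, so they say little on quality. The 3′ to 5′ difference of the actin control probe sets, a sign of RNA integrity, ran from 0.78 to 1.33. Fk_12h replicate 3 stood apart: its 28S ribosomal RNA control read 14.38, against 8.50 to 10.29 on the other 11 arrays, and the Fk differences at 12 h are therefore given with and without it. Of 10 proximal tubule markers on the array, 1 reached the level for testing, the transcription factor PAX8 (9.96 to 11.44), and the endocytic receptor LRP2 stayed between 2.82 and 3.28. All 7 epithelial markers reached it, as did 1 of 4 markers of the distal tubule and collecting duct (AQP2, 4.18 to 4.33), and 0 of 4 leukocyte markers, 1 of 4 endothelial markers (PECAM1, 3.37 to 4.59) and 2 of 4 fibroblast markers (COL1A1 and DCN) did.

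The integrated stress response starts when a kinase such as PERK, GCN2, PKR or HRI phosphorylates the translation factor eIF2. Most protein synthesis then slows, while a few mRNAs with upstream open reading frames, ATF4 and ATF5 among them, are translated more. ATF4 pairs with other basic leucine zipper proteins, such as CEBPB and CEBPG, and switches on genes of amino acid supply, and DDIT3 (CHOP) and ATF3 follow. PPP1R15A (GADD34) brings a phosphatase back to eIF2 and so closes the loop. In the kidney, tubular cells are known to run this programme under nutrient, oxidative and protein folding stress. The arrays measured RNA, not the phosphorylation or translation that the pathway turns on.

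The promoters of these genes were searched for the composite element that C/EBP and ATF proteins bind as a pair, since members of the set are themselves regulated by such pairs. The letters searched were TGATGNAA on both strands, in windows from 250 bases before to 50 bases after each RefSeq transcript start (GRCh38.p14). All 10 genes had at least 1 window, with 19 windows in all, which is more per gene than over all genes. Of the 10, 3 held the letters: ATF3, CEBPG and CHAC1. Among all 27305 RefSeq genes with a window, 4.46% held them, and of all 35116 windows 3.62%. These stretches, on the plus strand, carry the match in capitals and are shown because the 3 genes are also described by their values. ATF3 is at chr1:212565180-212565259, with the match beginning at position -191 from the transcript start at the beginning of the gene. The other of its 2 windows held no match. CEBPG is at chr19:33374060-33374089, inside the gene and before a downstream start, with the match at position -42 from that start. CHAC1 is at chr15:40953226-40953305, where the match lies on the reverse strand and begins at position -209.
ATF3: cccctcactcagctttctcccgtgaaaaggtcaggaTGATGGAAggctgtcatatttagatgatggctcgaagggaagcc
CEBPG: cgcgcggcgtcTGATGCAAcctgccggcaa
CHAC1: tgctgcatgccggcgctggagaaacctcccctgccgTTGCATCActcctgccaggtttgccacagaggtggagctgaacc

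The palindrome TGACGTCA, the element of CREB and ATF proteins, was searched in the same windows on both strands after the first search had been seen. None of the 10 genes held both elements. PPP1R15A alone of the 10 genes held it, at position -58 (chr19:48872327-48872406, GRCh38.p14, plus strand), against 2.25% of all genes and 1.85% of all windows. A match describes the letters of a window and was not tied to binding in these cells.
PPP1R15A: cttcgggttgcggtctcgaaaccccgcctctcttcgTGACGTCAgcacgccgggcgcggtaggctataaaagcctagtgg

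In control vehicle, 9 of the 10 genes rose from 12 h to 48 h and ATF5 fell, each with an adjusted p under 0.05 (limma, Benjamini-Hochberg over 10784 genes), and in all 10 the arrays of the 2 times did not overlap. Among all genes tested 10.6% rose and 10.9% fell by the same call, and 25.1% were higher and 24.9% lower without overlap of the arrays. The median of the 10 differences was +2.06 log2 units, against +0.01 over all genes. All 4 groups share 1 estimate of the spread, so Fk_12h replicate 3 enters the SE and p of this comparison too. Without it the differences were the same and all 10 genes again passed in limma (adjusted p 1.47e-04 to 0.0211), as did 3438 of the 10784 genes. Controls were measured at each time, so the time in culture and anything else that differed between the plates of the 2 times cannot be told apart, nor can more cells with the RNA and more RNA per cell.

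Of the transcription factors, ATF4 (chr22:39520559-39522686, GRCh38.p14), the central activator of the response, read 12.24, 11.67 and 12.29 in control at 12 h and 13.13, 13.27 and 13.26 at 48 h. All 3 later arrays lay above all 3 earlier ones, a 2.22-fold rise (+1.15 ± 0.25 log2 units, SE, n = 3 per group, adjusted p = 0.0113). ATF3 (chr1:212565407-212620777), which ATF4 induces and which represses many stress genes, read 6.58, 5.18 and 6.53 at 12 h and 11.35, 11.70 and 11.30 at 48 h. It rose 41.0-fold (+5.36 ± 0.91, 95% interval 3.34 to 7.38, adjusted p = 0.00403), and 1 of the 10784 genes had a larger positive difference. The gap between its highest early and its lowest late array was 4.72 log2 units.

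DDIT3 (chr12:57516588-57520517), which encodes CHOP, a factor tied to cell death under prolonged stress, read 8.70, 8.59 and 8.80 in control at 12 h and 14.13, 13.72 and 12.82 at 48 h. This was a 29.1-fold rise (+4.86 ± 0.63, 95% interval 3.47 to 6.26, adjusted p = 0.0014), with 2 genes above it. CEBPB (chr20:50190583-50192690), a C/EBP factor that pairs with ATF4, read 12.20, 11.68 and 11.87 and then 13.56, 13.67 and 13.27. It rose 3.00-fold (+1.58 ± 0.34, adjusted p = 0.0102). CEBPG (chr19:33373709-33382686), a short C/EBP protein that needs such a partner, read 8.66, 8.09 and 8.68 and then 10.31, 10.50 and 10.06. Its rise was 3.51-fold (+1.81 ± 0.31, adjusted p = 0.00428), so both C/EBP genes moved less than DDIT3 and ATF3 on the same scale, a difference between genes that was not tested.

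ATF5 (chr19:49928906-49933935), a relative of ATF4 that is also controlled through translation, was the single gene of the set to fall. It read 7.86, 7.55 and 7.79 in control at 12 h and 6.49, 6.63 and 7.18 at 48 h, a 1.96-fold lower level (log2 difference -0.97 ± 0.25, adjusted p = 0.0235). The call rested on the arrays and on the probe set. The adjusted p was 0.0761 or 0.0766 when control_12h replicate 1 or 3 was left out and 0.0907 or 0.0808 for control_48h replicate 1 or 2, while the difference stayed between -1.17 and -0.83. Another ATF5 probe set, 204999_s_at, differed by -0.14 between the control times, and 230938_x_at stayed between 4.51 and 5.08 on all 12 arrays. With the mean of all ATF5 probe sets the control difference was -0.26 (adjusted p = 0.262), and without the filter on low values its adjusted p was 0.0553.

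All 4 effectors rose. TRIB3 (chr20:380760-397559), a pseudokinase that ATF4 and CHOP induce and that restrains ATF4, read 11.48, 11.04 and 11.10 in control at 12 h and 13.01, 13.30 and 13.02 at 48 h. With all arrays in the fit it had the smallest adjusted p of the set (4.27e-04), for a 3.73-fold rise (+1.90 ± 0.18). Without Fk_12h replicate 3 that of DDIT3 was smaller in limma (1.47e-04, against 3.85e-04 for TRIB3). SESN2 (chr1:28259518-28282491), a sestrin that dampens mTORC1 signalling, read 8.29, 8.00 and 8.02 and then 10.32, 10.15 and 10.50, and rose 4.65-fold (+2.22 ± 0.30, adjusted p = 0.00154).

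PPP1R15A (chr19:48872421-48876058), the regulatory subunit that ends the response, read 6.68, 6.29 and 6.39 in control at 12 h and 9.23, 9.79 and 8.88 at 48 h. It rose 7.19-fold (+2.85 ± 0.50, adjusted p = 0.00441). CHAC1 (chr15:40953471-40956512), an enzyme that breaks down glutathione, read 5.57, 3.77 and 5.23 and then 8.01, 8.16 and 9.11. Its early level was the most uneven of the set among control arrays of 12 h (SD 0.96), and 1 array lay under the level of 4, yet the rise of 11.9-fold (+3.57 ± 0.77, adjusted p = 0.0108) was exceeded in 9 genes.

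**Figure D1:**
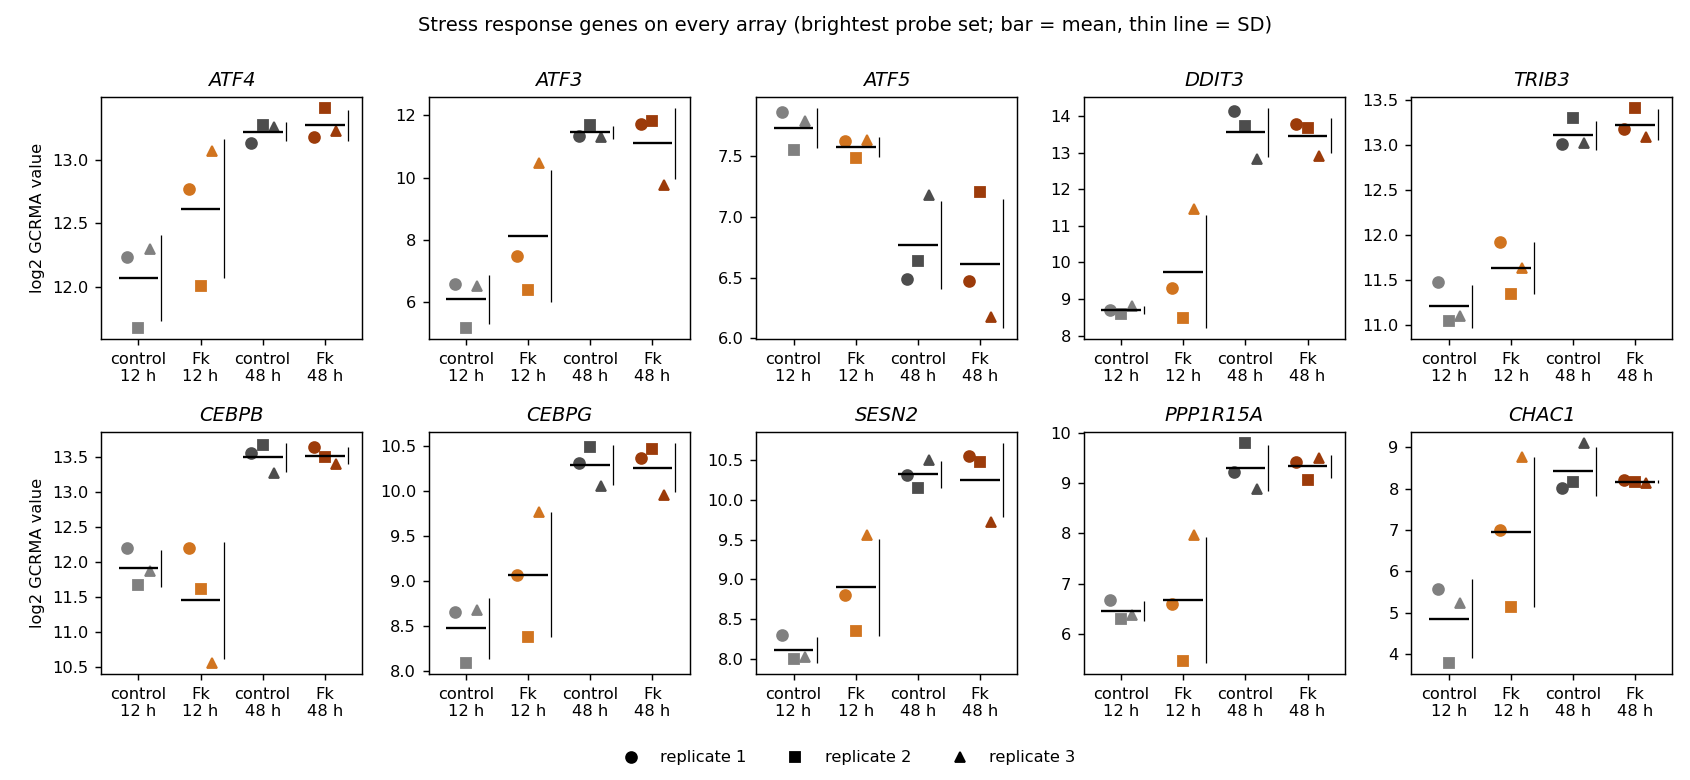
Log2 GCRMA values (vertical axes, a scale of its own in each panel) of the brightest probe set of each gene on all 12 arrays, in control and Fk cultures at 12 h and 48 h. Symbols mark the replicate number, horizontal bars the group mean and thin vertical lines the SD (n = 3). Control arrays of 48 h lie above those of 12 h in 9 panels and below in that of ATF5, and the Fk arrays of 12 h spread widely, over 4.08 log2 units for ATF3.

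The plot of values by array also shows the Fk cultures, whose SD at 12 h was larger than that of the controls in 9 of the 10 genes. In the Fk cultures 7 genes rose from 12 h to 48 h and ATF5 fell, against 11.5% and 11.7% of all genes by the same call, and 7 were higher and 1 lower without overlap, against 19.0% and 19.7%. DDIT3 rose 13.1-fold (+3.71 ± 0.63, adjusted p = 0.00367), PPP1R15A 6.28-fold (+2.65 ± 0.50, adjusted p = 0.00557) and CEBPB 4.17-fold (+2.06 ± 0.34, adjusted p = 0.00311). TRIB3 rose 3.01-fold (adjusted p = 6.76e-04), SESN2 2.55-fold (adjusted p = 0.0113) and CEBPG 2.28-fold (adjusted p = 0.0227), and ATF5 was 1.95-fold lower (adjusted p = 0.0227). ATF3 rose 7.89-fold (+2.98 ± 0.91, adjusted p = 0.0394) although its arrays overlapped, since Fk_12h replicate 3 read 10.48 and the lowest array at 48 h 9.77. ATF4 (+0.66 ± 0.25, adjusted p = 0.0833) and CHAC1 (+1.21 ± 0.77, adjusted p = 0.277) did not pass.

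Without Fk_12h replicate 3 all 10 genes passed in the Fk time course, 9 of them higher at 48 h, against 12.5% of all genes higher and 13.4% lower, with adjusted p from 3.71e-04 to 0.0426. ATF4 then differed by +0.88 (adjusted p = 0.0260), CHAC1 by +2.11 (adjusted p = 0.0352) and ATF3 by +4.16. The ATF3, ATF5 and CEBPG calls of the Fk time course were less stable. ATF3 had an adjusted p of 0.108 or 0.116 when Fk_12h replicate 1 or 2 was left out and 0.127 or 0.123 for Fk_48h replicate 1 or 2. It also missed the threshold, at 0.0511 to 0.0563, when control_12h replicate 1 or 3 or control_48h replicate 1 or 2 was left out. CEBPG missed it at 0.0547 to 0.0770 without Fk_12h replicate 1 or 2 or Fk_48h replicate 1 or 2, and ATF5 at 0.0555 to 0.0779 without Fk_12h replicate 1 or Fk_48h replicate 1 or 3. In a fit of the 6 Fk arrays alone, ATF3, ATF5, CEBPG, SESN2 and PPP1R15A missed it, at 0.145, 0.0822, 0.0945, 0.0776 and 0.0531.

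**Figure D2:**
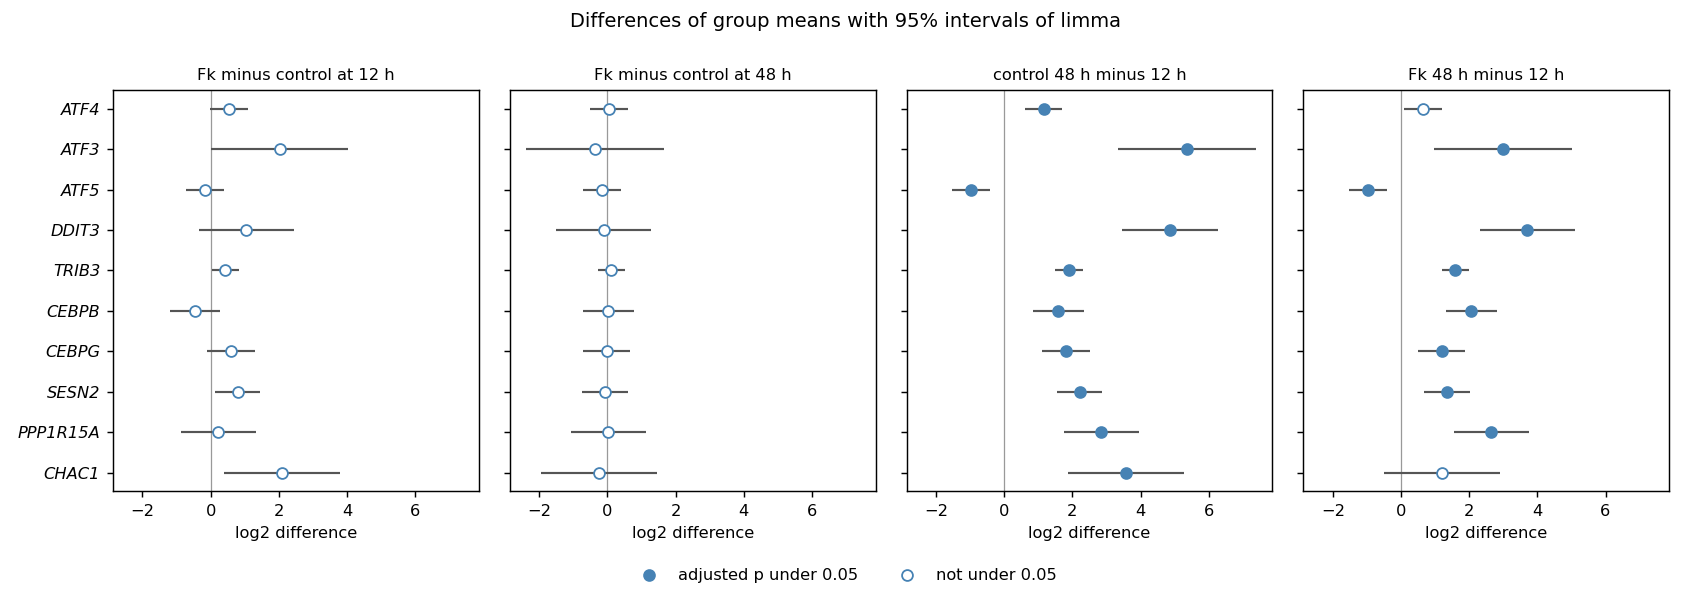
Log2 differences between group means (horizontal axes) of the 10 genes in 4 comparisons, with 95% confidence intervals of limma from 3 arrays per group. Filled points passed an adjusted p of 0.05: all 10 between the control times, 8 between the Fk times and none of the 10 between Fk and control at 12 h or at 48 h.

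At 12 h none of the 10 genes differed between Fk and control by the test, and nor did any other: 0 of 10784 genes (0%) passed in limma, where 724 (6.71%) had an unadjusted p under 0.05. Of the 10 genes, 8 had a positive difference, against 53.2% of all genes, and 4 had an unadjusted p under 0.05, CHAC1, ATF3, SESN2 and TRIB3. The median of the 10 was +0.57 log2 units, against +0.01 over all genes. The adjusted p ran from 0.673 to 0.948, or from 0.679 to 0.999 without Fk_12h replicate 3. Without Fk_12h replicate 3 the median was +0.28 and 7 differences were positive, against 55.9% of all genes. In limma 0 genes of the set then had an unadjusted p under 0.05, against 7.87% of all genes, and 3 other genes of the array (0.0278%) passed.

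ATF4 read 12.77, 12.01 and 13.07 in Fk at 12 h, in replicate order. Replicate 2 lay within the control range and the others above it, a difference of +0.55 (95% interval -0.01 to 1.10) or +0.32 without replicate 3. ATF3 read 7.49, 6.39 and 10.48, so replicate 3 lay 3.54 above the mean of the other two. Its difference was +2.02 (0.00 to 4.04), or +0.84 without that array. DDIT3 read 9.30, 8.49 and 11.46, and here replicate 2 lay below every control array. Its difference was +1.05 (-0.34 to 2.45), or +0.20 without replicate 3.

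CEBPG, the partner of ATF4, read 9.07, 8.38 and 9.77, a difference of +0.59 (-0.10 to 1.29), or +0.25 without replicate 3. CEBPB went the other way on that array, reading 12.20, 11.62 and 10.55, so that the difference of -0.46 (-1.20 to 0.29) became -0.003 without it. ATF5 read 7.62, 7.48 and 7.63, within 0.15 log2 units of each other and overlapping the controls (-0.16, -0.72 to 0.41, or -0.18 without replicate 3).

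Among the effectors, SESN2 was the single gene whose arrays did not overlap: it read 8.81, 8.34 and 9.55 with Fk against 8.29 at most in control. Of all genes 9.91% were higher and 6.49% lower without overlap at 12 h. The SESN2 difference was +0.80 (0.13 to 1.46, adjusted p = 0.689), or +0.47 without replicate 3, still without overlap, as were 21.7% of genes in that direction and 15.5% in the other. CHAC1 read 7.00, 5.13 and 8.76, and its lowest Fk array lay below 2 of the control arrays. Its difference of +2.11 (0.40 to 3.81, adjusted p = 0.673), or +1.21 without replicate 3, was larger than that of all but 5 genes with a positive difference.

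TRIB3 read 11.92, 11.35 and 11.63, and its difference of +0.43 (0.03 to 0.83) was the same without replicate 3, to 2 decimals. PPP1R15A read 6.60, 5.46 and 7.97, the lowest and the highest of the 6 arrays of that time both being Fk arrays. Its difference of +0.22 (-0.88 to 1.32) turned to -0.42 without replicate 3.

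Fk_12h replicate 3 was the highest of its group in 8 of the 10 genes, where 45.0% of all genes had it highest, and the lowest in CEBPB. It lay over 1 log2 unit above the mean of replicates 1 and 2 in 5 genes, ATF3, CHAC1, DDIT3, PPP1R15A and CEBPG, and as far below in CEBPB (-1.36). That is 60.0% of the set against 15.4% of all genes, of which 569 lay above and 1091 below. In SESN2 the deviation was +0.98, in ATF4 +0.68, in ATF5 +0.08 and in TRIB3 -0.003. The 28S control was high on the same array, and its part in these deviations was not tested.

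**Figure D3:**
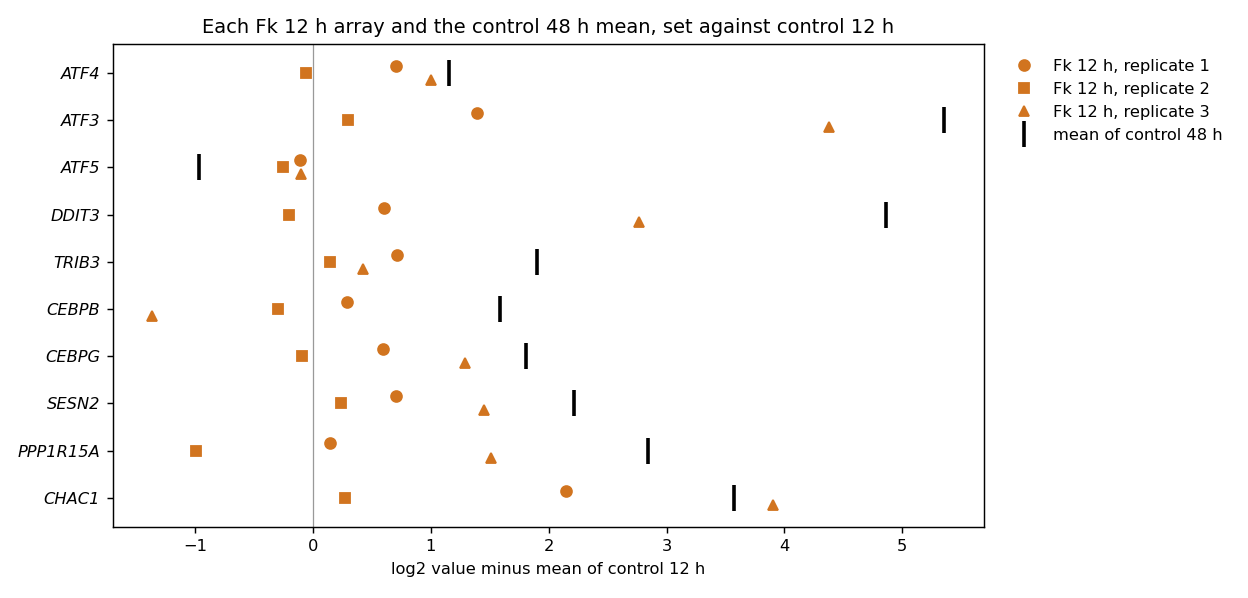
Log2 value of each Fk array of 12 h minus the mean of the 3 control arrays of 12 h (horizontal axis), with the control mean of 48 h on the same scale as a black bar. Both are set against the same control arrays. Replicate 3 (triangles) lies 4.38 above the control mean in ATF3, 3.90 in CHAC1 and 2.77 in DDIT3, and at -1.36 in CEBPB, while replicate 2 (squares) lies near 0 or below in most genes.

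The plot of single Fk arrays of 12 h shows how far each stood from its controls. Replicate 1 lay above the control mean in 9 genes, by 2.15 log2 units in CHAC1 and 1.39 in ATF3, and replicate 2 in 4 genes, by 0.30 at most. Replicate 3 was above in 8 genes. The Fk difference at 12 h and the control time course share the control arrays of 12 h, so their values stand side by side here and no likeness between them is drawn.

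At 48 h the Fk and control arrays of every gene of the set overlapped, where 6.14% of all genes were higher and 4.02% lower without overlap. ATF4 read 13.18, 13.41 and 13.23 with Fk, inside or just above the control range, and the difference was +0.05 (95% interval -0.51 to 0.61). ATF3 read 11.72, 11.80 and 9.77, of which replicate 3 lay below every control array and replicates 1 and 2 above, and the difference was -0.36 (-2.38 to 1.67). DDIT3 read 13.78, 13.68 and 12.92 (-0.10, -1.49 to 1.29). CEBPB read 13.65, 13.50 and 13.41 (+0.02, -0.72 to 0.77), and CEBPG 10.37, 10.47 and 9.96 (-0.03, -0.72 to 0.67), each set lying mostly within its control range. ATF5 read 6.47, 7.20 and 6.17 (-0.15, -0.71 to 0.41).

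The effectors did not stand apart from their controls at 48 h either. TRIB3 read 13.18, 13.41 and 13.09 (+0.12, -0.28 to 0.51) and SESN2 10.55, 10.48 and 9.72 (-0.07, -0.73 to 0.59). PPP1R15A read 9.42, 9.06 and 9.49 (+0.03, -1.08 to 1.13). CHAC1 read 8.20, 8.17 and 8.14, the most even group of the set (SD 0.03), against controls of 8.01 to 9.11 (-0.25, -1.96 to 1.45). In limma 0 of 10784 genes (0%) passed at 48 h, 559 (5.18%) had an unadjusted p under 0.05, and 0 genes of the set were among the latter. Of the 10, 4 had a positive difference, against 53.8% of all genes, with a median of -0.05. With all arrays the intervals of ATF3, CHAC1, DDIT3 and PPP1R15A reach past 1 log2 unit on both sides, so such a change was not excluded either way. The groups share 1 estimate of the spread, so Fk_12h replicate 3 widens or narrows these intervals too. Without that array they were -1.64 to 0.93 for ATF3 and -1.50 to 0.99 for CHAC1. For DDIT3 the interval was then -0.89 to 0.69, and for PPP1R15A -0.66 to 0.72. The TRIB3 interval holds no value above 0.51, or 0.53 without that array.

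The Fk effects at 12 h and at 48 h were not shown to differ. The interaction passed in 0 of 10784 genes (0%), with 357 (3.31%) at an unadjusted p under 0.05 and 0 of the set, whose adjusted p ran from 0.996 to 0.999. It was positive in 2 of the 10, against 51.6% of all genes, and in 3 without Fk_12h replicate 3. The same term tests whether the Fk and control time courses differ. The mean Fk effect over both times was positive in 8 of the 10 genes, against 54.1% of all genes, and passed in 0 of them (adjusted p 0.652 to 0.959). Without Fk_12h replicate 3 it was again positive in 8 and passed in 0 (adjusted p 0.503 to 0.991). A single gene of the array passed (0.00927%): ZBED2, a zinc finger gene, which is not of the set and was lower with Fk (-1.81 ± 0.21, adjusted p = 0.0479).

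By group means, 8 genes ran in the order control at 12 h, Fk at 12 h and then both 48 h groups. CEBPB began with Fk at 12 h, and ATF5 ran in reverse, from Fk at 48 h as the lowest to control at 12 h as the highest. At 48 h the neighbours overlapped in every gene. At 12 h they overlapped in all genes but SESN2, and none of the 10 differences between Fk and control passed the test at either time. The 48 h groups followed each other in either order, Fk lower in ATF3, DDIT3, CEBPG, SESN2 and CHAC1 and control lower in ATF4, TRIB3, CEBPB and PPP1R15A.

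Where a gene had further probe sets, several followed the brightest and some did not. The correlations with the brightest over the 12 arrays describe how alike they were. They were 0.995 for TRIB3 (1555788_a_at, +2.39 between the control times), 0.993 for SESN2 (223196_s_at, +2.47) and 0.987 for ATF3 (1554980_a_at, +6.09). The remaining ATF3 probe set, 1554420_at, stayed between 2.09 and 2.39 on all arrays, under the level for testing.

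PPP1R15A was alike across its probe sets in time and not at 12 h. The further one, 202014_at, had a correlation of 0.983 and +3.05 between the control times, but +0.63 for Fk at 12 h, or +0.07 without replicate 3. For CEBPG the further probe set, 225527_at, had a correlation of 0.721 and +1.47 between the control times, and read 7.39 on Fk_12h replicate 3, its lowest value, where the brightest read 9.77. Its Fk difference at 12 h was -0.37, opposite in sign to +0.59, and without that array the probe sets gave +0.03 and +0.25. ATF5 was the least settled: 204999_s_at had a difference of -0.89 for Fk at 48 h and -1.11 between the Fk times, values that the brightest probe set gave as -0.15 and -0.96. ATF4, DDIT3, CEBPB and CHAC1 had 1 probe set each.

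The genes around this set were counted from lists of the same pathway. Over all genes tested, 10.6% rose and 10.9% fell between the control times (median +0.01). With Fk, 53.2% were positive at 12 h, 55.9% without Fk_12h replicate 3, and 53.8% at 48 h, and the counts of each list are to be read against these shares. Upstream, a list of 22 genes held the eIF2 kinases, the subunits of eIF2 and its exchange factor eIF2B, and the phosphatase partners. GCN1, IMPACT, DELE1, OMA1, DNAJC3 and NCK1 were listed with them. Of these, 6 of 22 genes rose and 1 fell between the control times, with a median of +0.15. The 6, named after their values were seen, were EIF2AK3, EIF2S2, IMPACT, DELE1, OMA1 and NCK1. The named ones by rule, EIF2AK1 (HRI), EIF2AK4 (GCN2), EIF2S3 (the gamma subunit of eIF2) and PPP1CB (a catalytic subunit of the phosphatase), differed by +0.02, -0.32, +0.10 and +0.29, and none of these 4 passed. EIF2AK3, which encodes PERK and was named after its values were seen, rose by 1.04 (adjusted p = 0.0265). With Fk at 12 h, 10 of the 22 were positive (median -0.01, or 10 and -0.0036 without replicate 3), at 48 h 12, and 0 passed at either time.

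Downstream, the ATF4 targets of amino acid supply were counted next. Between the control times 22 of 27 rose and 0 fell, with a median of +1.51. The serine synthesis enzyme PHGDH rose by 1.28 (adjusted p = 0.00426), the neutral amino acid carrier SLC1A4 by 1.15 (adjusted p = 0.0147) and the mitochondrial folate enzyme MTHFD2 by 1.21 (adjusted p = 9.29e-04), while the glutamine carrier SLC1A5 did not pass (+0.43, adjusted p = 0.115). With Fk at 12 h, 0 of 27 passed, 26 were positive and the median was +0.40, or +0.35 with 26 positive without Fk_12h replicate 3. The genes named by rule from each list had its smallest p in the mean Fk effect, which uses these 12 h arrays. Their Fk differences are thus not independent of that choice. PHGDH read 9.35, 8.80 and 9.43 with Fk and 8.31, 7.94 and 8.66 in control at that time. Its arrays did not overlap, where 9.91% of all genes were higher without overlap (+0.89 ± 0.22, adjusted p = 0.575, and +0.77 without replicate 3). SLC1A4 had +1.09 ± 0.27 (adjusted p = 0.575), the same without that replicate to 2 decimals. At 48 h, 21 were positive with a median of +0.10.

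Of the stress targets of ATF4 and CHOP, 13 of 18 rose between the control times and 0 fell, with a median of +1.66. INHBE, an inhibin subunit gene, read 5.67, 2.91 and 4.32 in control at 12 h and 12.29, 11.82 and 11.34 at 48 h, and rose by 7.52 (adjusted p = 3.26e-04). The tRNA exporter gene XPOT rose by 1.19 (adjusted p = 0.00107) and the stress gene NIBAN1 by 2.63 (adjusted p = 0.00507), while the endoplasmic reticulum oxidase ERO1A did not pass (+0.34, adjusted p = 0.0712). With Fk at 12 h, 14 of 18 were positive with a median of +0.26, or 15 and +0.29 without replicate 3, and 0 passed. INHBE read 8.18, 6.34 and 7.60 there, above all 3 controls, where 9.91% of all genes were higher without overlap (+3.07 ± 0.65, adjusted p = 0.575, and +2.96 without replicate 3).

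Of 8 close relatives of the 10 genes, 2 rose between the control times and 0 fell, with a median of -0.05. CEBPA rose by 0.47 (adjusted p = 0.0450) and the AP-1 repressor JDP2 by 0.83 (adjusted p = 0.0312), while CEBPD (-0.04) and SESN1 (-0.23) did not pass. With Fk at 12 h, 4 of 8 were positive with a median of +0.04, or 6 and +0.12 without replicate 3. A list of 30 basic leucine zipper genes holds CEBPA, CEBPD and JDP2 again, and genes of other lists such as NFIL3 and XBP1. Of these 30, 10 rose and 1 fell between the control times (median +0.46). NFE2L2, the factor of the antioxidant response, was among those that rose (+0.89, adjusted p = 0.00355), while BATF3 (-0.01) and CREB1 (+0.01) did not pass. At 12 h 12 of the 30 were positive with a median of -0.10, which turned to 19 and +0.13 without Fk_12h replicate 3, and 0 passed.

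The other branches of the unfolded protein response, run by IRE1 and ATF6, were counted as the nearest neighbour of the pathway. Between the control times 7 of 22 rose and 0 fell, all 22 were positive and the median was +1.50. XBP1, the factor that IRE1 splices, read 9.78, 9.35 and 9.67 in control at 12 h and 11.77, 11.92 and 11.27 at 48 h, and rose by 2.06 (adjusted p = 8.23e-04). PDIA4, an oxidoreductase of the endoplasmic reticulum (+1.40), DERL3 (+0.56) and SEC61B (+0.09) did not pass. With Fk at 12 h 18 of 22 were positive with a median of +0.14, or 18 and +0.33 without replicate 3, and 0 passed, XBP1 having +0.80 (adjusted p = 0.654), or +0.62 without replicate 3.

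**Figure D4:**
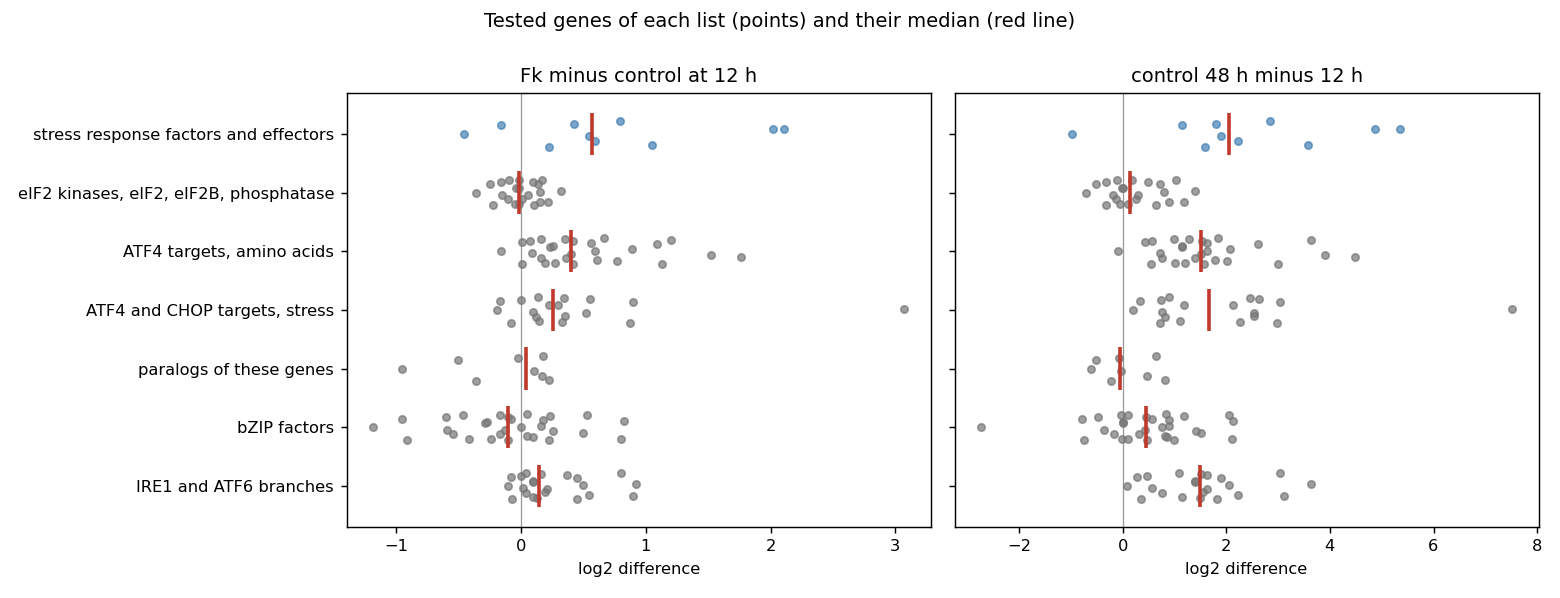
Log2 differences (horizontal axes) of every tested gene of the 7 lists (points) for Fk minus control at 12 h and for control at 48 h minus 12 h, with each list's median as a red line. The stress response factors and effectors have medians of +0.57 and +2.06, and the ATF4 targets of amino acid supply of +0.40 and +1.51. The eIF2 list has medians of -0.01 and +0.15, and its genes run from -0.70 (PPP1CC) to +1.39 (DNAJC3) between the control times.

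The plot of the lists sets these medians next to each other, and both panels use the control arrays of 12 h. The lists share members, such as XBP1 and CEBPA, and were not tested against each other.

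Across the 12 arrays the 10 genes were correlated, which is a description of 12 points that share 4 groups and the difference between the times. Over the 45 pairs the median correlation was 0.905, and 36 pairs were positive, the other 9 being those with ATF5. With the mean of the other 9 genes, CEBPG had 0.989, ATF3 0.977, SESN2 0.974 and DDIT3 0.961, while CEBPB had 0.693, or 0.975 without Fk_12h replicate 3, and ATF5 -0.772. As deviations from the group means, which take out time and treatment, the median over pairs was 0.565, with CEBPG at 0.942, ATF4 at 0.895 and CEBPB at -0.348, or +0.832 without that array. The genes outside the set most like the mean of its standardized values over 12 arrays were GADD45A, a stress-induced growth arrest gene (0.982), INO80, a chromatin remodeller (0.980), CARS1, the cysteine tRNA ligase (0.979), ASNS, which makes asparagine (0.978), and EFL1, a ribosome assembly factor (0.977).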

How the data were processed

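RNA of 12 HK-2 cultures was hybridised to Affymetrix arrays. The authors deposited GCRMA output, as the submitters' processing notes name it, and its range puts it on the log2 scale. Its version, and the set of arrays it was run on, are not given in the sources used here. GCRMA makes arrays alike in distribution, so a shift of all genes would not be seen. Of 54675 probe sets, 41097 carry 1 gene symbol in the platform annotation, 1801 several and 11777 none. Of the first kind 41043 matched RefSeq, with 0 symbols changed. The brightest probe set with 1 symbol stood for its gene, which was tested if it reached 4 on at least 3 arrays.

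Genes were tested with limma 3.58.1 (R 4.3.3) on group means over all 12 arrays and eBayes, which had 2.44 prior beside 8 residual degrees of freedom. They were two-sided. P-values were adjusted by Benjamini-Hochberg over 10784 genes, with a threshold of 0.05. Precision is limited by the number of arrays. For Fk against control, the median 95% interval reached 0.447 log2 units to either side. The gene test was checked on simulated data. Replicate numbers were not taken as pairs. Promoters came from RefSeq (GRCh38.p14). Plots were drawn in Python 3.11.15 (matplotlib 3.10.9, pandas 2.3.3).

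The genes, the lists and the tests were chosen with earlier results of these data known. Named by rule were the 10 genes, up to 4 genes of each list with the smallest p in the mean Fk effect, the 5 genes most like the set, and all genes past the threshold in a Fk comparison. The TGACGTCA search, EIF2AK3 and the other rising genes of the eIF2 list were added after values were seen. In all, 23 other settings were tried, of which 12 left out 1 array.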

Additional observations from a re-analysis of the deposited data

How the results depend on the processing

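No gene of the set passed for Fk at 12 h or 48 h under any other setting run, of 23 in all, and in the control time course the 9 rises passed under every setting run for it, ATF5 being the exception given with its values. The counts of all genes moved more. With weights for array quality, which gave Fk_12h replicate 3 a weight of 0.121, 156 genes passed at 12 h, 94 at 48 h, 527 for the mean effect, 4920 between the control times and 5345 between the Fk times, where ATF4 and CHAC1 then passed. Without the filter on low values 1 gene passed at 48 h and 0 for the mean effect, and ATF3, ATF5 and CEBPG no longer passed between the Fk times (adjusted p = 0.104, 0.0544 and 0.0583). With the mean of all probe sets the counts at 48 h and for the mean effect were 4 and 2, and with trended and robust moderation the latter was 0. With only the groups compared in the fit, 1 gene passed at 48 h and 831 between the Fk times. Leaving out each array gave 0 to 3 genes at 12 h, 0 to 1 at 48 h, 0 to 2 for the mean effect, 1060 to 3438 between the control times and 1297 to 2787 between the Fk times, the highest of each without Fk_12h replicate 3, tied at 48 h with Fk_48h replicates 1 and 2. The cause of these moves was not tested.

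Deviations of equal replicate numbers correlated by 0.04, 0.27 and 0.16 at 12 h and by 0.80, -0.03 and 0.61 at 48 h. At 48 h replicates 1 and 3 thus varied alike in Fk and control, which the main test, without pairs, leaves out. With the replicate block within time, 1 gene passed at 12 h, 0 at 48 h, 0 for the interaction and 0 for the mean effect. In limma 983 genes at 48 h then had an unadjusted p under 0.05, against 559 without the block. Such counts also rose elsewhere, to 1264 from 724 at 12 h, 718 from 357 for the interaction and 1450 from 856 for the mean effect. With the replicate block over all arrays, 2589 passed between the control times and 2778 between the Fk times, where ATF3 had an adjusted p of 0.0538.

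Signs turned only for differences that had not passed. At 48 h the range over left-out arrays was -0.020 to 0.10 for ATF4, -0.71 to 0.31 for ATF3, -0.44 to 0.071 for ATF5, -0.47 to 0.19 for DDIT3, -0.092 to 0.11 for CEBPB, -0.14 to 0.13 for CEBPG, -0.22 to 0.20 for SESN2, -0.18 to 0.27 for PPP1R15A and -0.46 to 0.086 for CHAC1. PPP1R15A ranged from -0.42 to 0.83 at 12 h, -0.80 to 0.45 for the interaction and -0.20 to 0.43 for the mean effect, CEBPB from -0.40 to 0.0096 for the mean effect, and ATF5 from -0.29 to 0.23 for the interaction. With array weights the differences at 48 h were +0.044 for ATF3, +0.35 for ATF5, -0.079 for CEBPB, +0.017 for CEBPG, +0.18 for SESN2 and -0.40 for PPP1R15A. PPP1R15A was then -0.34 at 12 h and -0.37 for the mean effect, ATF5 +0.078 for the mean effect and CEBPB -0.023 for the interaction. With the mean of all probe sets ATF5 was +0.0091 at 12 h and -0.27 for the interaction. After a further quantile normalization PPP1R15A was -0.0065 at 48 h and ATF5 -0.019 for the interaction, and with arrays centred on their medians CEBPB was -0.011 and PPP1R15A -0.0062 at 48 h and ATF5 -0.0058 for the interaction.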
